A study of Mus musculus with 19 samples.

Results

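The 10 genes described here are those that mark macrophages and monocytes in the mouse: Adgre1, Csf1r, Cd68, Mrc1, Cd163, Lyz2, Itgam, Ccr2, Arg1 and Ccl2. They were picked by symbol, and all 10 were among the 34807 genes in the count table and among the 32031 that passed the filter on low counts. RNA sequencing had been done on whole tumours and on skin of female mice. In the tumour-bearing mice BRAFV600E, an activated form of a kinase of the MAPK pathway, was switched on through an inducible CreERT2 recombinase. The labels give 7 to 20 weeks as the age of the mice, in 1 text for all samples, and do not give the age of each. Per the methods of the study, Ivl mice received tamoxifen and K5 and K14 mice 4-hydroxytamoxifen on the shaved back, so origin and inducer cannot be told apart. Cre was driven by the Ivl promoter, which is active in differentiating keratinocytes, in the Ivl:BRAFV600E genotype (6 tumours), by the Krt5 promoter in K5:BRAFV600E (5 tumours) and by the Krt14 promoter in K14:BRAFV600E (4 tumours). The Krt5 and Krt14 promoters are active in basal keratinocytes, so in each model the allele is meant to be switched on in epithelial cells and not in macrophages. The 4 samples of normal skin were WT. Tumours were labelled as squamous cell carcinoma. The study describes K5 and K14 tumours as growing on the back and Ivl tumours as arising at several sites of the body, and the normal skin came from control littermates. It also reports a longer latency to onset and slower growth for Ivl tumours, so origin cannot be told apart from latency or site either. K5 and K14 tumours, both of basal origin, were compared with each other and then pooled as K5/K14 (9 tumours).

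Macrophages of the skin descend partly from cells seeded before birth and partly from blood monocytes. Monocytes that carry the receptor CCR2 leave the blood towards its ligand CCL2, and macrophages depend for survival on the receptor CSF1R and its ligands CSF1 and IL-34. Resident dermal macrophages display the scavenger receptors CD206 (encoded by Mrc1) and CD163, which take up glycoproteins and haemoglobin complexes. ARG1 splits arginine into ornithine and urea and is widely used as a marker of alternatively activated and tumour-associated macrophages, although keratinocytes, hepatocytes and granulocytes can make it as well. In a bulk sample fewer cells of a type and less RNA per cell cannot be told apart.

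RefSeq promoters (GRCm38.p6) were at hand for 6 of the 10 genes. The 150 bases just before the first transcribed base are shown for Mrc1 (chr2:14229242-14229391, plus strand), Itgam (chr7:128062490-128062639, plus strand) and Cd68 (chr11:69666171-69666320, minus strand), as examples of a scavenger receptor, an integrin and a lysosomal marker. Capitals mark matches, on either strand, to GAGGAA (the core bound by the myeloid factor PU.1), TGANTCA (AP-1) and TTGCNNAA (C/EBP).
Mrc1: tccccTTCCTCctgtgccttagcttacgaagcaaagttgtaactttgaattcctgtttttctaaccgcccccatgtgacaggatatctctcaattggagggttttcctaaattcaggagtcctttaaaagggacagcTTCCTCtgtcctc
Itgam: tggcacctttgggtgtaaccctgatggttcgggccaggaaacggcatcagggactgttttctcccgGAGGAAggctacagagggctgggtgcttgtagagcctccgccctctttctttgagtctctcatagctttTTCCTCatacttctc
Cd68: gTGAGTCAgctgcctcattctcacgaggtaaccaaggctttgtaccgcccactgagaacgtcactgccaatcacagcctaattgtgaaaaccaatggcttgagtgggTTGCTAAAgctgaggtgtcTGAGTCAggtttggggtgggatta
The stretches of Mrc1 and Itgam each held 2 matches to GAGGAA and none to the others, and that of Cd68 held 2 matches to TGANTCA and 1 to TTGCNNAA. No match overlapped another. The windows of Lyz2 and Cd163, which are not shown, held none of these letters, and that of Ccr2 was too short to compare. Of 32475 distinct mouse promoters, 14.6% held GAGGAA in the 150 bases before the start, 4.23% held TGANTCA and 5.47% held TTGCNNAA. A match of letters is a description and shows no binding.

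Total counts ran from 45715309 to 72609771 per library, and the lowest count of any of the 10 genes in any library was 52. Levels are given as CPM, counts scaled to library size, after scaling by the trimmed mean of M values (TMM). Keratinocyte genes (8 genes) summed to 5255 to 10850 CPM in skin and to 34910 to 101300 CPM in tumours. Skeletal muscle genes (7 genes) summed to 2138 to 6628 CPM in skin and to between 1.37 and 3910 CPM in tumours, so the samples differed in make-up. Ivl 2 (3910 CPM) and Ivl 3 (1370 CPM) are among the 4 libraries set apart next, and the highest tumour outside them was Ivl 6 at 484.5 CPM. Ivl 1, Ivl 2, Ivl 3 and K5 1 were set apart because of how close their mean was to that of the rest. For 96.6% of 13954 genes the mean of these 4 libraries lay within 0.1 on the log2 scale of the mean of the other 15. The other 15 include all 4 skin samples, whereas these 4 libraries are all tumours. Whether an adjustment moved the values of these 4 libraries, and with them the differences from skin over 19 libraries, was not tested. The labels do not say whether they were a batch, and results that rest on them are given over all 19 libraries and over the 15 others. Normal skin 1 and 2 stood apart in level from normal skin 3 and 4, which held more of 9 of the 10 genes. Fibroblast genes were at 14510 and 19140 CPM in skin 3 and 4 and at 3418 and 875 CPM in skin 1 and 2. Mast cell genes were at 161.5 and 179.9 CPM in skin 3 and 4 and at 48.7 and 11.7 CPM in skin 1 and 2. For the 10 genes the differences from skin are also given against each pair alone, whereas the ratios to Adgre1 and the other gene lists were set against all 4 skin samples only.

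All 10 genes are protein-coding, and their positions are given on GRCm38. Adgre1 (F4/80, an adhesion G protein-coupled receptor) spans chr17:57358691-57483527, Csf1r chr18:61100598-61132149, Mrc1 chr2:14229392-14332057, Cd163 chr6:124304656-124330527, Itgam (the integrin chain CD11b) chr7:128062640-128118491 and Ccr2 chr9:124101950-124113557, all on the plus strand. Lyz2 (lysozyme) spans chr10:117277331-117282321 and Arg1 chr10:24915221-24927484, both on the minus strand. Cd68, a glycoprotein of lysosomes, spans chr11:69664213-69666153 on the minus strand, and Ccl2 spans chr11:82035571-82037453 on the plus strand. Csf1r and Ccl2 overlap a gene of the opposite strand (Hmgxb3 and Gm17268), Csf1r and Mrc1 hold a microRNA gene on their own strand (Mir6983 and Mir511), and whether reads were counted by strand is not stated. Itgam overlaps Gm49368 on its own strand, so the split of reads in that pair is uncertain.

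Per kilobase of exon, the scale on which genes can be compared, Lyz2 had the highest median level of the 10 in skin (187 CPM per kb), followed by Arg1 at 26.8, Mrc1 at 15.1, Csf1r at 14.95, Cd68 at 13.3, Adgre1 at 8.66, Cd163 at 8.165, Ccr2 at 5.88, Ccl2 at 3.61 and Itgam at 1.57 CPM per kb. In the 15 tumours Arg1 headed the order with a median of 444 CPM per kb, ahead of Lyz2 at 52.85 and Cd68 at 20.95 CPM per kb. Csf1r at 6.5, Ccl2 at 5.485, Mrc1 at 4.997 and Adgre1 at 3.31 came next, and Cd163 at 1.31, Ccr2 at 1.21 and Itgam at 0.927 were lowest. The ranges over samples overlapped between every pair of neighbours in both orders.

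**Figure D1:**
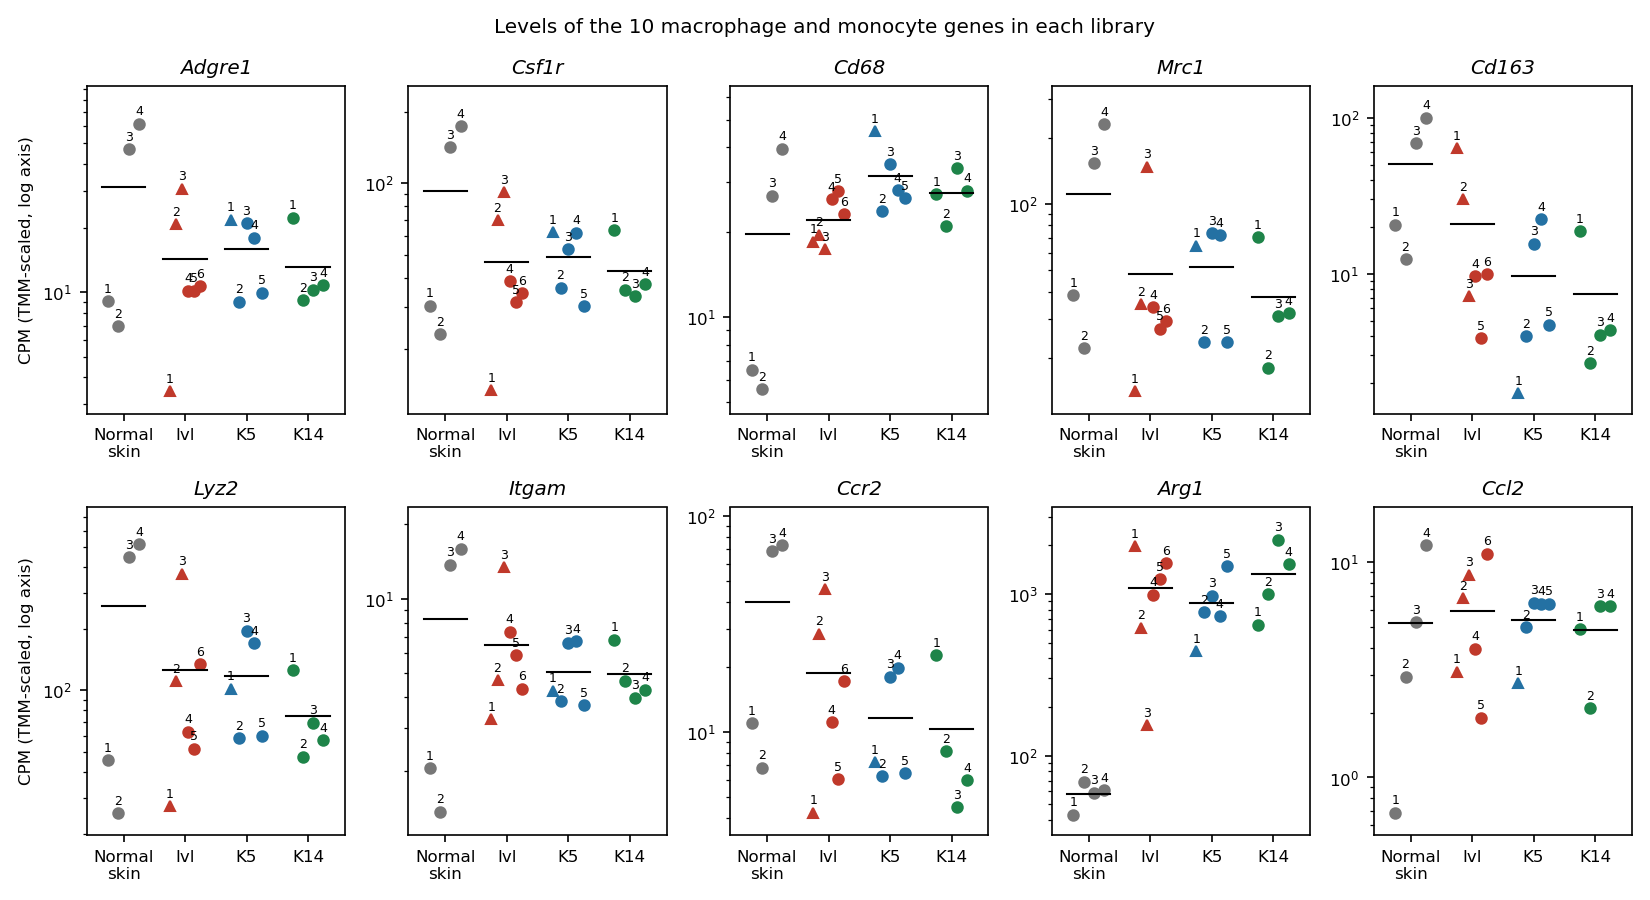
Level of each of the 10 genes in CPM (log axis) in each library, by group. Numbers are replicate numbers, triangles mark Ivl 1, 2, 3 and K5 1, and bars are group means. In 9 of the 10 panels normal skin 3 and 4 lie above normal skin 1 and 2, and Arg1 is the gene of the 10 whose 15 tumours all lie above all 4 skin samples.

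Adgre1, the classical marker of mature mouse macrophages, was at 9.10, 6.935, 47.0 and 61.7 CPM in normal skin 1 to 4. In the 6 Ivl tumours it ran from 3.44 over a median of 10.5 to 30.6 CPM, and in the 9 K5/K14 tumours from 9.04 over 10.8 to 22.4 CPM. The tumours, apart from Ivl 1 and K5 2, lay between the low and the high pair of skin samples. Its log2 difference from skin was -1.12 ± 0.57 (SE) in Ivl tumours and -1.08 ± 0.52 in K5/K14 tumours, and neither passed (edgeR adjusted p = 0.124 and 0.0781).

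Csf1r, the receptor through which macrophages receive their survival signal, was at 30.5, 23.1, 142 and 174 CPM in the skin samples, at 13.4 to 91.7 CPM (median 36.6) in Ivl tumours and at 30.4 to 63.5 CPM (median 37.5) in K5/K14 tumours. Lyz2, a secreted enzyme that digests bacterial walls and is made by macrophages, monocytes and granulocytes, was at 45.6, 25.2, 447 and 516 CPM in skin and at 27.2 to 371 CPM in tumours. Itgam, shared by monocytes, macrophages and neutrophils, was at 2.06, 1.37, 13.7 and 15.9 CPM in skin and at 3.24 to 13.4 CPM in tumours. Skin and tumours overlapped for all 3 genes, and edgeR called none in either comparison with skin over 19 libraries. In K5/K14 tumours Csf1r and Lyz2 lay near the threshold (edgeR adjusted p = 0.0683 and 0.0848) and DESeq2 called both lower (adjusted p = 0.0357 and 0.043).

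Cd68 had a different pattern. Its level was 6.53, 5.575, 26.95 and 39.5 CPM in skin, 17.4 to 27.95 CPM (median 21.4) in Ivl tumours and 20.95 to 45.55 CPM (median 28.0) in K5/K14 tumours. Tumours were more even than skin (SD 7.25 CPM over 15 tumours and 16.5 CPM over 4 skin samples), and none was as low as skin 1 and 2. The log2 difference from skin was 0.17 ± 0.395 (SE) in Ivl tumours (adjusted p = 0.727) and 0.60 ± 0.38 in K5/K14 tumours (adjusted p = 0.166). Without normal skin 4 the latter was 1.19 ± 0.36 and passed (edgeR adjusted p = 0.00998). Without normal skin 1, 2 or 3 it was 0.32 ± 0.35, 0.30 ± 0.33 and 0.80 ± 0.42 and did not pass (edgeR adjusted p = 0.44, 0.444 and 0.111).

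Cd163 fell in K5/K14 tumours. It was at 20.7, 12.4, 68.5 and 100.1 CPM in normal skin 1 to 4. K5 tumours 1 to 5 held 1.72, 3.975, 15.6, 22.3 and 4.73 CPM, and K14 tumours 1 to 4 held 18.8, 2.67, 4.07 and 4.34 CPM. Of these 9 tumours 6 lay below 5 CPM and below every skin sample, and the other 3 lay between skin 2 and skin 3. The fall was 5.80-fold (log2 -2.54 ± 0.75 SE, adjusted p = 0.00782). Ivl tumours 1 to 6 held 63.6, 30.1, 7.17, 9.645, 3.865 and 9.94 CPM, of which Ivl 1 was the highest tumour of all, and their log2 difference from skin was -1.28 ± 0.835 (adjusted p = 0.215). Over the 15 libraries, which leave out Ivl 1, 2 and 3, that difference was -2.69 ± 0.94, Ivl tumours lay below every skin sample, and the fall passed (adjusted p = 0.0275).

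Mrc1, the other scavenger receptor, was at 38.55, 22.2, 153.5 and 231 CPM in skin, at 14.1 to 148 CPM (median 31.6) in Ivl tumours and at 18.0 to 73.7 CPM (median 31.8) in K5/K14 tumours. It overlapped between all groups. Its log2 difference from skin was -1.21 ± 0.67 (SE) in Ivl tumours and -1.29 ± 0.60 in K5/K14 tumours (adjusted p = 0.148 and 0.0695). Over the 15 libraries these were -1.885 ± 0.757 and -1.37 ± 0.55, and both passed by a small margin (adjusted p = 0.0485 and 0.0416).

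Of the recruitment pair, the receptor Ccr2 fell in K5/K14 tumours and its ligand Ccl2 was not called. Ccr2 was at 10.97, 6.82, 68.5 and 72.8 CPM in skin and at 7.23, 6.23, 18.0, 19.8 and 6.46 CPM in K5 tumours 1 to 5. K14 tumours 1 to 4 held 22.6, 8.16, 4.48 and 5.97 CPM. The fall was 3.62-fold (log2 -1.86 ± 0.635, SE, adjusted p = 0.0177), and all 9 tumours lay below skin 3 and 4, whereas 5 of the 9 lay within or above the range of skin 1 and 2. Ivl tumours held 4.23 to 45.7 CPM (median 14.1), a log2 difference of -1.08 ± 0.71 from skin (adjusted p = 0.216). Ccl2 was at 0.686, 2.945, 5.275 and 12 CPM in skin, at 1.90 to 11 CPM in Ivl tumours and at 2.097 to 6.502 CPM in K5/K14 tumours. Its log2 differences from skin were 0.18 ± 0.56 and -0.01 ± 0.52, with 95% intervals from -0.919 to 1.28 and from -1.03 to 1.01. Differences inside these intervals, in either direction, were not excluded.

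Arg1 was higher in every tumour than in any skin sample. The 4 skin samples held 43.1, 68.95, 58.8 and 60.8 CPM, with no split between the pairs. Ivl tumours 1 to 6 held 1982, 618, 154, 989.9, 1241 and 1553 CPM. K5 tumours 1 to 5 held 444, 769, 979, 727 and 1488 CPM, and K14 tumours 1 to 4 held 645, 1001, 2173 and 1528 CPM. The lowest tumour, Ivl 3, was still above the highest skin sample, and no group overlapped with skin. The rise was 18.8-fold in Ivl tumours (log2 4.23 ± 0.60, SE, adjusted p = 3.08e-05) and 18.7-fold in K5/K14 tumours (log2 4.23 ± 0.585, adjusted p = 1.2e-05). Over the 15 libraries it was 21.8-fold and 20.1-fold. Over all alternatives the log2 rise lay between 3.98 and 4.61 in Ivl tumours and between 4.03 and 4.33 in K5/K14 tumours, and it passed in each.

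Over all 10 genes, the comparison of Ivl tumours with skin called 1 gene higher (Arg1) and 0 lower. Of all genes tested, 20.4% were called higher and 15.5% lower. The median log2 difference was -1.01 for the 10 genes and -0.46 for all genes. At an unadjusted p under 0.05, 0 of the 10 were lower and 1 was higher, where 15603 of 32031 genes passed in either direction. DESeq2 called 1 higher and 0 lower (18.9% and 17.5% of all genes). In K5/K14 tumours 1 gene was higher (Arg1) and 2 lower (Cd163 and Ccr2), where 23.2% of all genes were higher and 38.9% lower, and the medians were -1.04 for the 10 and -0.60 for all genes. DESeq2 called 1 higher and 6 lower there (22.0% and 36.3% of all genes), adding Adgre1, Csf1r, Mrc1 and Lyz2, and edgeR with its filterByExpr filter also called 6 lower (40.8% of all genes). In K5/K14 tumours the share of members called lower was thus under that of all genes in the main edgeR fit. It was above that of all genes with DESeq2, with filterByExpr and over the 15 libraries, whose calls follow. Over the 15 libraries 1 was higher and 2 lower in Ivl tumours (Cd163 and Mrc1; 22.2% and 32.7% of all genes), and 1 was higher and 5 lower in K5/K14 tumours (Adgre1, Csf1r, Mrc1, Cd163 and Ccr2; 23.9% and 42.3% of all genes). Scaling by relative log expression (RLE) in place of TMM moved the median of all genes to -0.59 in Ivl and -0.71 in K5/K14 tumours and turned the split of all calls in Ivl tumours from 6535 higher and 4980 lower to 5712 higher and 6828 lower, and it left every direction of the 10 genes against skin as it was.

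The calls changed with the skin samples that entered for 8 of the 10 genes, Arg1 and Ccl2 being the exceptions. Against normal skin 3 and 4 alone, 7 of the 10 genes were lower in K5/K14 tumours, namely Adgre1 (-1.87), Csf1r (-1.77), Mrc1 (-2.07), Cd163 (-3.27), Lyz2 (-2.28), Itgam (-1.56) and Ccr2 (-2.68 on the log2 scale), and 5 in Ivl tumours (25.2% and 8.06% of all genes). Against normal skin 1 and 2 alone, 0 were lower in either, where 3506 of 31249 genes were lower in Ivl and 10429 in K5/K14 tumours. Cd68 and Itgam were then called higher beside Arg1, where 17.5% of all genes were higher in Ivl and 21.1% in K5/K14 tumours: Cd68 by 1.84 ± 0.27 in Ivl tumours and 2.28 ± 0.27 in K5/K14 tumours, and Itgam by 1.89 ± 0.48 and 1.52 ± 0.46 (log2, SE, adjusted p = 0.00036, 2.84e-05, 0.00754 and 0.011). The log2 fall of Cd163 in K5/K14 tumours was then -0.95 ± 0.93 (adjusted p = 0.391) and that of Ccr2 turned to 0.28 ± 0.76 (adjusted p = 0.761). Arg1 was higher by 4.18 against skin 3 and 4 and by 4.25 against skin 1 and 2. Leaving out single libraries, the number lower in K5/K14 tumours was 6 without skin 1, 7 without skin 2, 1 (Cd163) without skin 3, 1 (Cd163) without skin 4 and 5 without K14 1. Of all genes, 10829 of 31510, 10637 of 31344, 11508 of 31706, 11658 of 31719 and 13184 of 32012 were lower in these fits. In Ivl tumours the number lower was 3 without Ivl 3 (Adgre1, Csf1r and Mrc1), where 7928 of 32009 genes were lower.

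**Figure D2:**
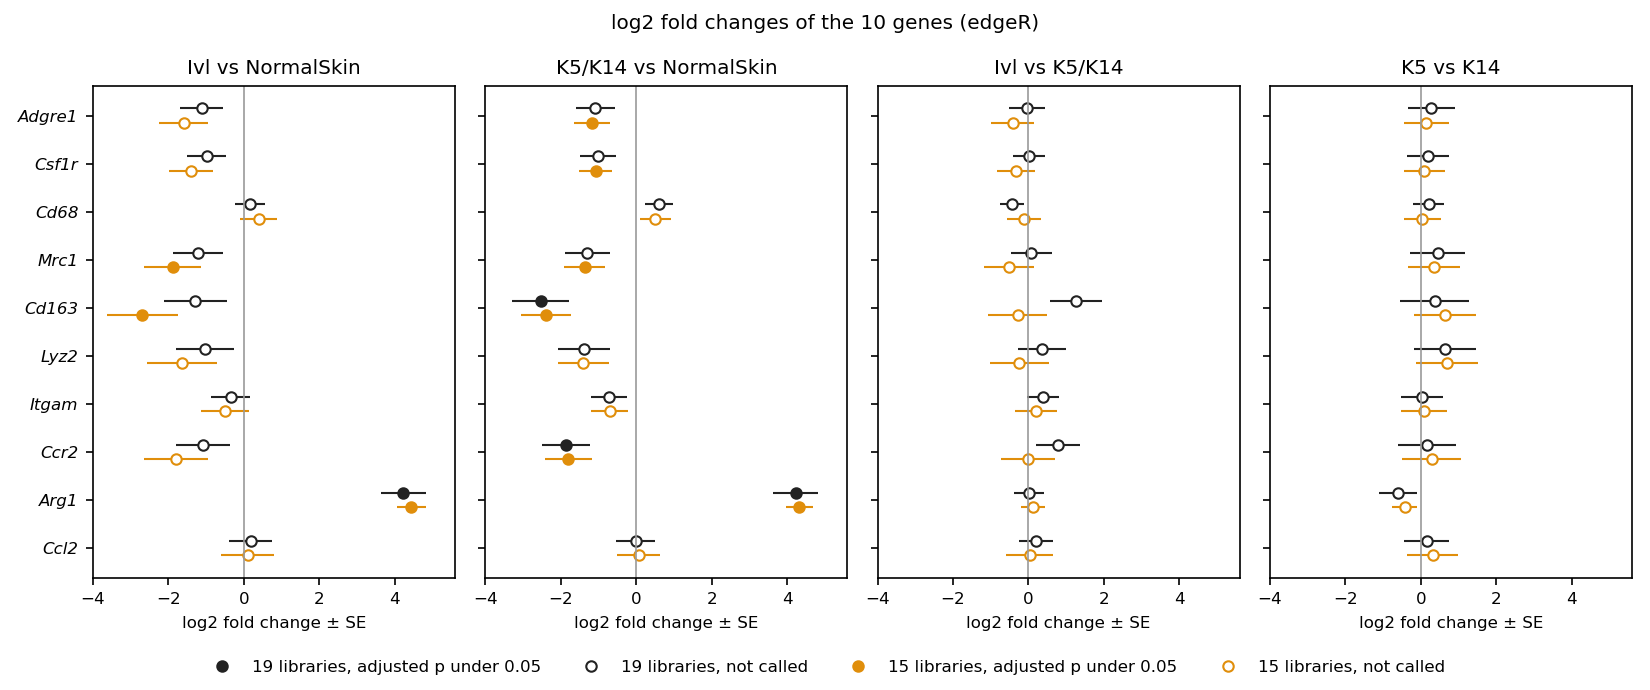
log2 fold changes (x axis, ± SE) of the 10 genes (y axis) in the 4 comparisons, over 19 libraries (black) and over the 15 outside Ivl 1 to 3 and K5 1 (orange). Filled points passed an edgeR adjusted p under 0.05. Arg1 sits above 4 in both comparisons with skin, and no point is filled in the comparisons between tumours.

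Tumours of different origin were then compared with each other. Between Ivl and K5/K14 tumours 0 of the 10 genes were called, where 1.77% of all genes were higher in Ivl and 0.593% lower (0.213% and 0.197% over the 15 libraries). None of the 10 passed an unadjusted p under 0.05 in edgeR, where 6754 of 32031 genes did. DESeq2 called 0 of the 10, and of 31906 genes it called 1203 higher and 678 lower. The log2 differences ran from -0.43 ± 0.325 (Cd68) to 1.25 ± 0.685 (Cd163), with a median of 0.14 beside 0.11 for all genes. The difference of Cd163 was -0.29 ± 0.77 over the 15 libraries, and that of Ccr2 was 0.77 ± 0.58 over 19 and -0.0034 ± 0.72 over 15. For Arg1 it was 0.0078 ± 0.40 (95% interval from -0.778 to 0.793), and differences inside this interval were not excluded. Between K5 and K14 tumours 0 of the 10 were called at an adjusted or an unadjusted p under 0.05, and DESeq2 called 0. Of all genes 0.0% were higher and 0.0% lower in that comparison over 19 libraries (1945 at an unadjusted p under 0.05, while DESeq2 called 51 higher and 119 lower), and 0.0219% and 0.0313% over 15. The log2 differences ran from -0.60 ± 0.50 (Arg1) to 0.65 ± 0.82 (Lyz2).

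A ratio of genes inside a library does not depend on scaling between libraries, so each gene was also set against Adgre1. Csf1r kept to a narrow band in every sample: its log2 CPM exceeded that of Adgre1 by 1.64 ± 0.12 (SD) in skin, 1.75 ± 0.15 in Ivl and 1.68 ± 0.22 in K5/K14 tumours, and normal skin 1 to 4 stood at 1.74, 1.73, 1.596 and 1.496. Here the pairs of skin samples did not separate by more than the tumours spread. Cd68 was at -0.56 ± 0.21 relative to Adgre1 in skin and at 1.08 ± 0.45 in K5/K14 tumours, a difference of 1.64 with no overlap (two-sided exact permutation p = 0.0028, adjusted p = 0.0252 over 27 tests). Cd163 went the other way, from 0.81 ± 0.27 to -1.19 ± 1.125, and Arg1 from 1.46 ± 1.58 to 6.14 ± 1.18, both with the same p and adjusted p. That p is the smallest that 9 against 4 samples can give. Ccr2 missed the threshold (0.82 lower, adjusted p = 0.0566). In K5/K14 tumours 2 ratios were thus higher and 1 lower than in skin, and the same 3 passed over the 15 libraries, where Itgam also passed (0.65 higher, adjusted p = 0.0273).

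In Ivl tumours no ratio passed against skin, where the smallest p that 6 against 4 samples can give is 0.00952, or between Ivl and K5/K14 tumours. Among these, ratios with an unadjusted exact permutation p under 0.05 were those of Itgam (1.04 higher in Ivl than in skin, p = 0.0381) and Arg1 (4.715 higher, p = 0.019), and that of Ccr2 between Ivl and K5/K14 tumours (0.79 higher in Ivl, p = 0.0168), with adjusted p of 0.129, 0.0857 and 0.0857. The ratio of Ccr2 to Adgre1 was 0.23 ± 0.52 in Ivl tumours, 0.26 ± 0.23 in skin and -0.56 ± 0.57 in K5/K14 tumours. Ivl 1 departed from its group, with Cd163 at 18.5 times the CPM of Adgre1, against 0.234 to 1.44 times in the other Ivl tumours and 1.46 to 2.27 times in skin. It belongs to the 4 libraries set apart above, and the part of that in its values was not tested.

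**Figure D3:**
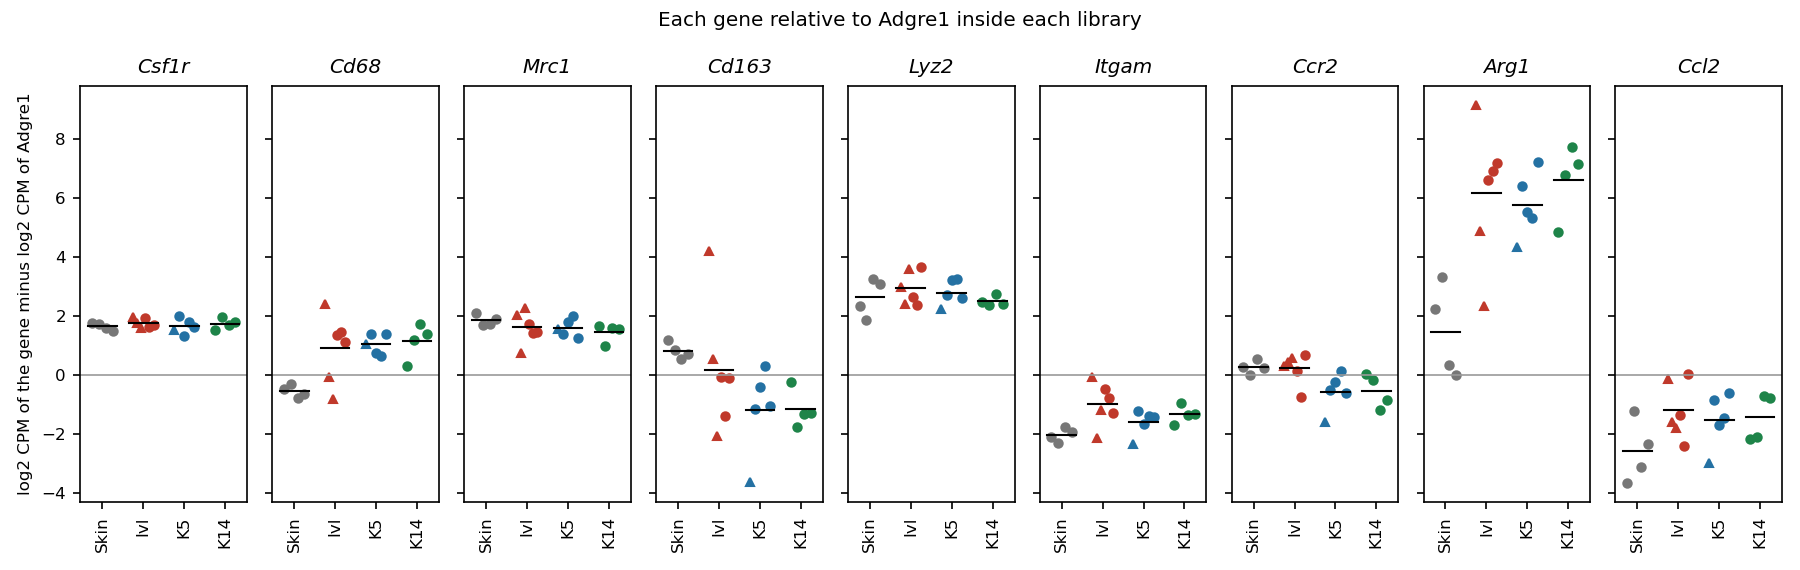
log2 CPM of each of 9 genes minus that of Adgre1 in each library (y axis), by group (x axis). Triangles mark Ivl 1, 2, 3 and K5 1, and bars are group means. Csf1r forms a flat band in all groups, Arg1 and Cd68 lie higher in K5/K14 tumours than in skin, and Cd163 lies lower.

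Among tumours the markers moved together. Outside the 4 libraries set apart, Adgre1 was at 21.1, 18.1 and 22.4 CPM in K5 3, K5 4 and K14 1 and at 9.04 to 10.8 CPM in the other 8 tumours. The same 3 tumours held the most Csf1r (52.7, 62.0 and 63.5 CPM), Mrc1 (73.7, 72.2 and 70.7 CPM), Ccr2 (18.0, 19.8 and 22.6 CPM) and Cd163 (15.6, 22.3 and 18.8 CPM) of these 11. Skeletal muscle genes were also higher in these 3 (150, 64.9 and 453 CPM) than in 7 of the other 8 (1.599 to 14.6 CPM, with Ivl 6 at 484.5 CPM), and the part of tissue sampling in this was not tested. Over the 15 tumours Adgre1 correlated with Csf1r (Pearson r = 0.976, Spearman rho = 0.825), Mrc1 (0.902 and 0.911), Lyz2 (0.88 and 0.807), Ccr2 (0.776 and 0.689) and Itgam (0.673 and 0.607). Without the 2 tumours farthest from the median of Adgre1, r was 0.941, 0.879, 0.791, 0.682 and 0.411. Since 3 of the 11 tumours stood off from the rest, such values describe that split and are given without a p.

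Over the 15 tumours Cd68, Cd163, Ccl2 and Arg1 departed from this block. The correlation of Cd68 with Adgre1 was 0.253 (rho = 0.286), and 0.497 (rho = 0.636) over the 11 tumours outside the 4 libraries, that of Ccl2 was 0.364 (rho = 0.407) and that of Cd163 was -0.098 (rho = 0.164). The last rested on the 4 libraries set apart, as r was 0.863 over the other 11 tumours. Mrc1 and Itgam correlated at r = 0.80 (rho = 0.732), and Mrc1 and Cd68 at r = 0.231 (rho = 0.321). Over the 11 tumours these were 0.711 (rho = 0.664) and 0.597 (rho = 0.682), so the lower value of Cd68 rested on the 4 libraries. Arg1 ran against the block, with r = -0.766 to Adgre1 (rho = -0.65), r = -0.816 to Csf1r (rho = -0.882) and r = -0.771 to Mrc1 (rho = -0.686). Over the 11 tumours these were -0.531 (rho = -0.227), -0.723 (rho = -0.755) and -0.474 (rho = -0.409). The inverse relation of Arg1 to Adgre1 and to Mrc1 was thus weaker outside the 4 libraries. Ivl 3, with the most Adgre1 of all tumours, had the least Arg1, and Ivl 1, with the least Adgre1, had 1982 CPM of Arg1, the second highest value.

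**Figure D4:**
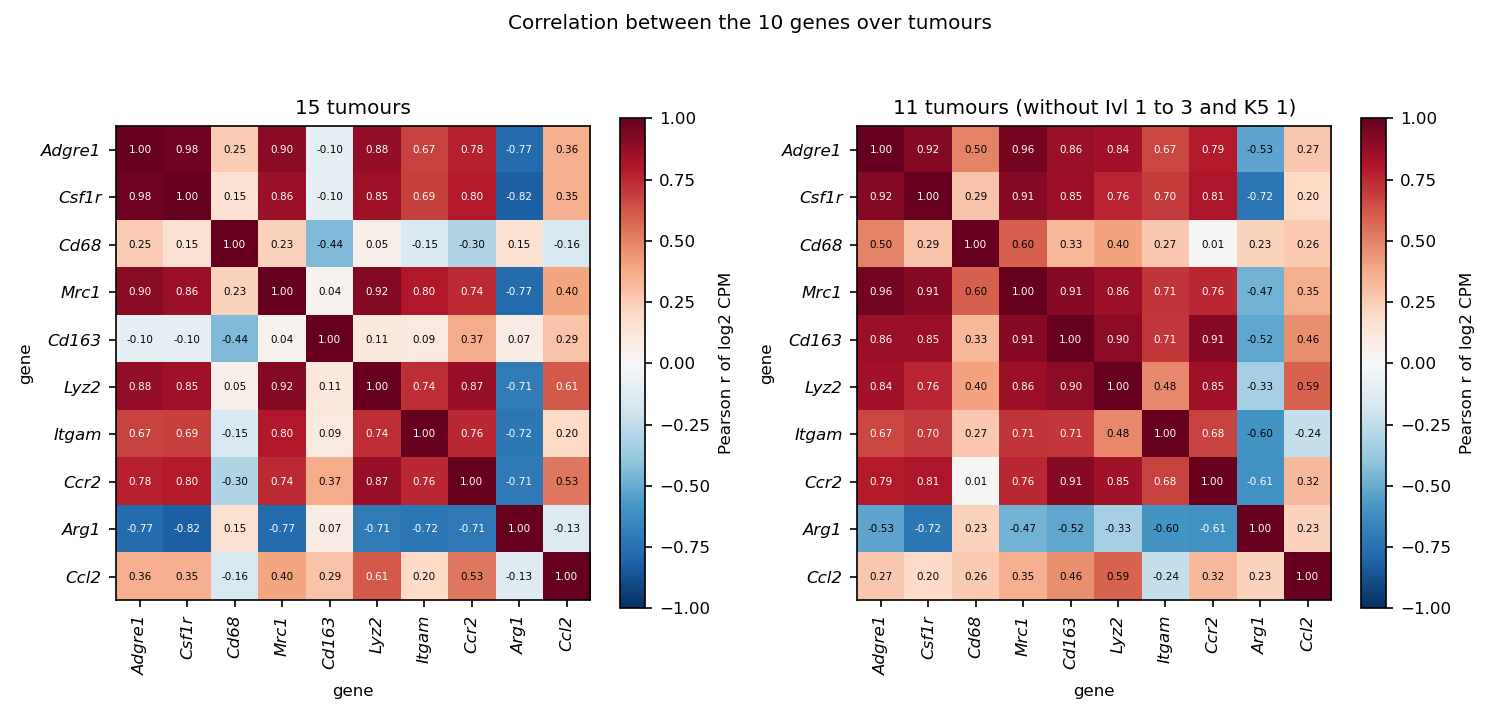
Pearson correlation of log2 CPM between the 10 genes (both axes) over 15 tumours (left) and over the 11 outside Ivl 1 to 3 and K5 1 (right). Adgre1, Csf1r, Mrc1 and Lyz2 are correlated at 0.76 or more in both panels, and Arg1 is negative to each of them in both.

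Lists of related genes were described by their counts over the same 19 libraries, beside the shares of all genes given above. In Ivl tumours 4 of 16 activated and tumour macrophage genes and 4 of 14 resident dermal macrophage genes were lower over the 15 libraries. Over 19 libraries these were 0 and 2. Of 8 fibroblast genes 3 were lower over 15 libraries, and of 7 adipocyte genes 3, where 19 libraries gave 0 for both. The share of all genes lower in Ivl tumours also rose, from 15.5% over 19 libraries to 32.7% over 15. Of 12 pan-myeloid genes, 0 were called in Ivl tumours, and 1 was higher and 1 lower in K5/K14 tumours. These were Cd14, a co-receptor for bacterial lipopolysaccharide (1.27, adjusted p = 0.0299), and Csf2ra, the alpha chain of the GM-CSF receptor (-0.87, adjusted p = 0.012). Spi1, which encodes PU.1, was at -0.49 and -0.58 (log2) in Ivl and K5/K14 tumours and was not called. Of 14 genes of resident dermal macrophages, 0 were higher and 2 lower in Ivl tumours (Clec10a, -2.49, and Mertk, -1.26), and 1 was higher and 3 lower in K5/K14 tumours. Mertk, a receptor for the clearance of dead cells, was at 15.8 to 21.2 CPM in skin with no split between the pairs and at 4.08 to 8.48 CPM in K5/K14 tumours (log2 -1.62, adjusted p = 0.001). F13a1, a transglutaminase of coagulation, fell as well (-2.22, adjusted p = 0.0202), whereas Stab1, another scavenger receptor, rose (1.68, adjusted p = 0.0085). Lyve1 was at -0.75 and -1.24 and was not called. The median of this list was -0.83 in Ivl and -0.86 in K5/K14 tumours.

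Monocyte genes (10) gave 1 higher and 0 lower in Ivl tumours and 3 higher and 1 lower in K5/K14 tumours. Chil3, a chitinase-like protein, was higher in both (2.95 and 2.96, adjusted p = 0.0237 and 0.0113) but low throughout, at 0 to 0.419 CPM in skin and 0.23 to 2.45 CPM in tumours. Cx3cr1, the fractalkine receptor, was higher in K5/K14 tumours (0.99, adjusted p = 0.0164) and Ly6c1, also made by endothelium, was lower (-1.05, adjusted p = 0.0411). Ly6c2, which marks inflammatory monocytes, was at 0.35 and 0.69 and not called. Genes of activated and tumour macrophages (16) gave 5 higher and 0 lower in Ivl tumours and 7 higher and 3 lower in K5/K14 tumours, with medians of -0.25 and 0.49. Il1b, an inflammatory cytokine, rose by 4.03 and 2.87 (adjusted p = 0.00157 and 0.00519), Ptgs2, the inducible cyclooxygenase, by 3.67 and 4.68 (adjusted p = 0.00558 and 0.00064), and Spp1, osteopontin, by 2.64 and 2.06 (adjusted p = 0.0326 and 0.0443). Vegfa, the angiogenic factor, rose by 1.16 and 2.14 (adjusted p = 0.0103 and 3.37e-05). In K5/K14 tumours the scavenger receptor Marco (-2.91, adjusted p = 0.00975) and the ligand Cd274 (-1.06, adjusted p = 0.00432) fell. Il1b, Ptgs2 and Vegfa are known to be made by keratinocytes and neutrophils as well.

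Of the 4 ligands of CSF receptors, Csf3, which drives neutrophil production, rose in both tumour types (5.32 and 5.42, adjusted p = 0.00467 and 0.00203), and Csf1, the main ligand of CSF1R, was lower in K5/K14 tumours (-1.01, adjusted p = 0.0107) and at -0.78 (adjusted p = 0.085) in Ivl tumours. Csf1 was at 21.1 to 62.1 CPM in skin and 11.1 to 27.2 CPM in K5/K14 tumours. Chemokines and receptors of monocytes (12) gave 3 higher and 0 lower in Ivl tumours and 3 higher and 2 lower in K5/K14 tumours. Ccl3 and Ccl4, inflammatory chemokines, rose by 2.90 and 3.28 in Ivl tumours and by 2.77 and 2.52 in K5/K14 tumours (adjusted p = 0.00569, 0.00143, 0.00326 and 0.00357). The scavenging receptors Ackr1 (-2.91, adjusted p = 0.0035) and Ackr2 (-1.62, adjusted p = 0.00456) fell in K5/K14 tumours. Ccl7, a further ligand of CCR2, was at -0.40 and -0.20 and not called.

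Beside Arg1, 11 other genes of arginine and polyamine metabolism gave 5 higher and 1 lower in Ivl tumours and 6 higher and 2 lower in K5/K14 tumours. Asl, which makes arginine, rose by 1.002 and 1.053 (adjusted p = 2.36e-05 and 3.59e-06), and Srm, spermidine synthase, by 1.52 and 1.80 (adjusted p = 6.3e-05 and 4.9e-06). Slc7a2, an arginine transporter found on macrophages among other cells, fell by 1.32 and 2.51 on the log2 scale (adjusted p = 0.038 and 8.85e-05), and Sms, spermine synthase, fell in K5/K14 tumours (-0.94, adjusted p = 0.00296). Arg2, the mitochondrial arginase, was at 2.09 to 5.67 CPM in tumours and 2.47 to 4.76 CPM in skin and was not called (0.01 and 0.06). The rise of Arg1 was thus not shared by Arg2, and the 2 differences were not tested against each other.

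Markers of the other cells a skin sample can hold moved as well, and their part in the results above was not tested. Neutrophil genes (12) gave 6 higher and 0 lower in Ivl tumours and 7 higher and 0 lower in K5/K14 tumours. Their summed level was 11.65 to 54.1 CPM in skin, 109.5 to 6585 CPM in Ivl tumours and 1667 to 6699 CPM in K5/K14 tumours. Such a sum follows the highest genes of the list. K5 5, for example, summed to 5685 CPM with a mean log2 CPM of 1.759 and 2 of the genes at 0. The mean log2 CPM of the list ran from -2.098 to -0.6325 in skin and from -0.4223 to 2.695 in tumours. Which cells made these RNAs was not tested. S100a8 rose by 6.52 and 7.06 and Cxcr2, the chemokine receptor of neutrophils, by 4.07 and 4.75. Ly6g, the defining neutrophil marker, was listed at 0 in all 4 skin samples and reached at most 0.2799 CPM in a tumour, so no fold is given for it, although it is among the genes called higher. Dendritic and Langerhans cell genes (11) gave 0 higher and 2 lower in Ivl tumours and 0 higher and 9 lower in K5/K14 tumours, where Zbtb46 fell by 1.65, Clec9a by 2.06, Itgae by 1.66 and Cd207, langerin, by 1.64 on the log2 scale. Of 10 T cell genes 1 was higher in both (Cd5, 1.61 and 1.44), and 6 were lower in K5/K14 tumours, led by Cd3e (-2.66) and Trdc (-2.19).

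Keratinocyte genes (8) were higher for 7 in Ivl and for 8 in K5/K14 tumours, led by Krt14 (3.34 and 3.74) and Ivl (4.72 and 6.42), with Krt5 at 2.29 and 2.33. Of 8 mast cell genes 2 were higher (Hdc, 2.105 and 2.20, and Fcer1a, 2.62 and 3.81) and 1 lower (Kit, -1.47 and -1.32) in both tumour types, with Cpa3 at -1.66 and -0.39. Fibroblast genes (8) gave 0 calls in Ivl tumours and 1 lower in K5/K14 tumours (Dcn, -2.36), with Col1a1 at -1.68 and -0.11. Of 6 endothelial genes 1 was higher in both (Emcn, 1.54 and 2.22) and 1 lower in K5/K14 tumours (Tek, -1.57), with Pecam1 at -0.04 and 0.68. Adipocyte genes (7) gave 0 calls in Ivl and 4 lower in K5/K14 tumours (Retn, -3.47, and Plin1, -4.25, among them, with Adipoq at -2.53 and -3.62). Skeletal muscle genes (7) gave 0 calls in Ivl tumours and 7 lower in K5/K14 tumours (Actn3, -4.88, and Myh4, -7.03, among them, with Acta1 at -1.95 and -5.77). Between Ivl and K5/K14 tumours, of all the genes in these lists, Ivl itself was lower in Ivl tumours over 19 libraries (-1.70, adjusted p = 0.047) but not called over 15, and no other was called over 19.

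**Figure D5:**
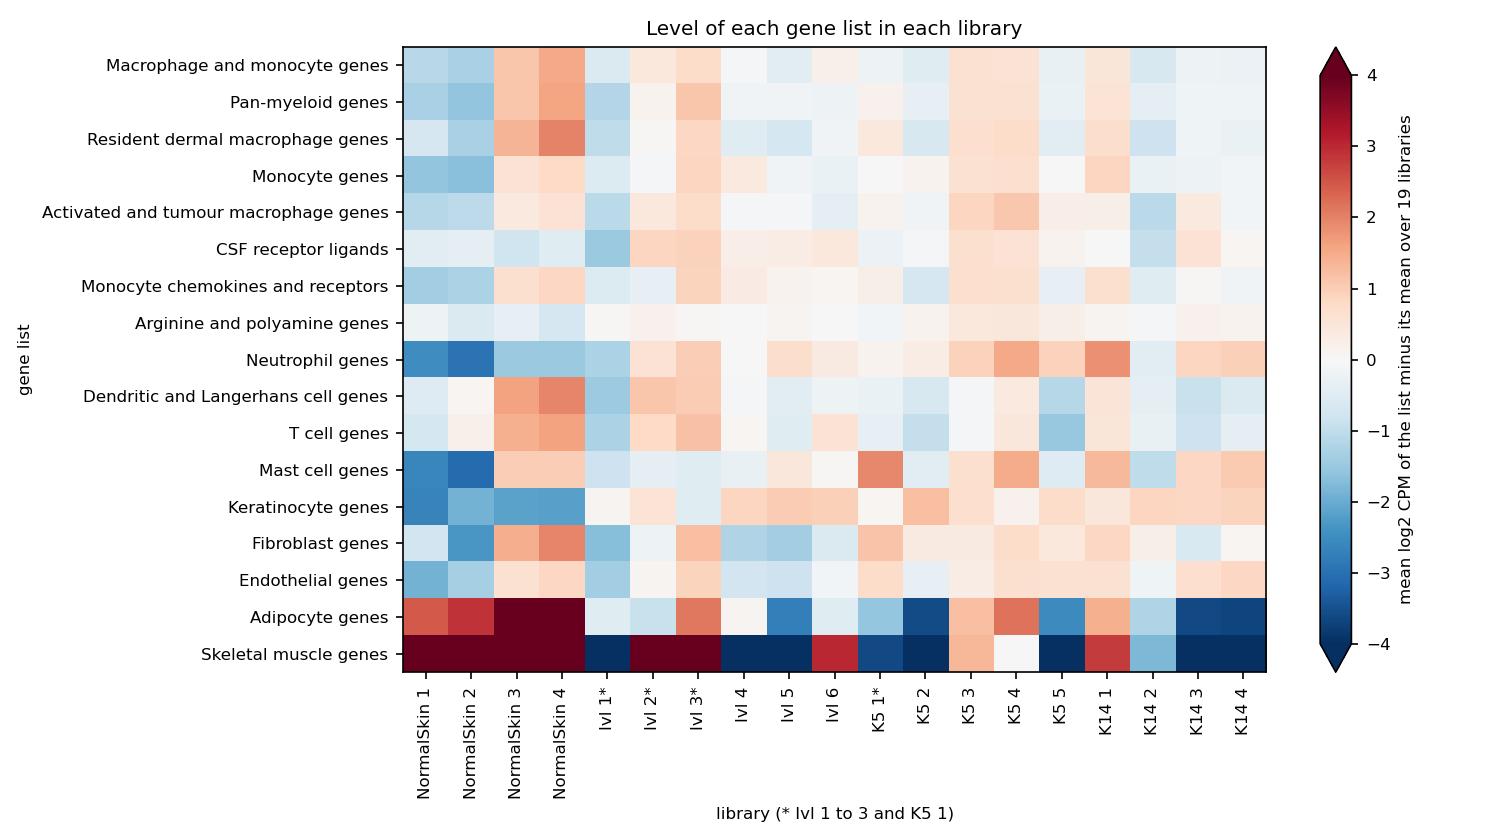
Mean log2 CPM of each gene list (rows) in each library (columns), minus the mean of that list over 19 libraries; the colour scale stops at 4 either way. Normal skin 3 and 4 are above normal skin 1 and 2 for the macrophage and monocyte genes and for most lists of immune and stromal genes, and the neutrophil and keratinocyte lists are lower in all 4 skin samples than in each of the 15 tumours.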

How the data were processed

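RNA sequencing libraries (poly(A), paired-end, strand-specific kit) of 15 tumours and 4 normal skin samples were used. Per the labels and methods, the authors checked reads with FastQC 0.11.8, trimmed them with Trim Galore, aligned them with HISAT2 2.1.0 to GRCm38, counted them per gene with featureCounts (Subread 1.6.3) and adjusted a batch with ComBat-seq. The deposited values were treated as estimated counts, since the table may hold adjusted values, whereas whole raw counts had been planned for. All values were whole numbers, so rounding changed nothing. The study gives the batches as 4 and 15 libraries, and which libraries formed them is not given in the sources used here. A gene was tested if any 1 library held 5 or more counts of it, which left 32031 genes. The quasi-likelihood test of edgeR 4.0.16 compared the groups. It was run under R 4.3.3 with TMM scaling and Benjamini-Hochberg adjustment over all genes (threshold 0.05). Intervals are the estimate ± 1.96 SE and can be narrower than this test implies. CPM and correlations used these factors, log2 CPM a prior count of 2. Ratios to Adgre1 were compared by two-sided exact permutation tests (scipy 1.17.1) adjusted over 27 tests. DESeq2 1.42.0, RLE scaling, other filters and a covariate for the 4 libraries set apart were alternatives. So were a replicate block, other groups in the fit and leaving out each library. Leaving out pairs of skin samples was added after seeing the data. The edgeR step was tested on simulated data. The labels do not say that replicates came from separate animals, so p-values measure only the spread between these samples. The 10 genes and the lists were chosen with earlier results of these data known. Of each list other than the 10, the text names the first gene and, per comparison, the leading genes by adjusted p, at most 2 each way. The 3 genes of highest correlation with each of the 10 were taken among genes of at least 1 CPM with a symbol that is not a predicted gene, and 1 of them is not reported here. Of 34807 genes, 34672 were matched to the annotation.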

Additional observations from a re-analysis of the deposited data

Results flagged for a closer look

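Within each group of 4 to 6 samples, the highest and lowest library of each of the 10 genes was set against its neighbours by Dixon's criterion at the 95% level, in 50 tests, of which chance gives about 1 in 20. In the K14 group the first tumour stood above the other 3 in Adgre1 (22.4 CPM), Csf1r (63.5 CPM) and Cd163 (18.8 CPM). Outside the libraries set apart, these genes moved together among tumours, so their flags are not separate. In the Ivl group the third tumour stood above the other 5 in Mrc1 (148 CPM) and Lyz2 (371 CPM). K14 1 had 453 CPM of summed skeletal muscle genes and Ivl 3 had 1370 CPM. The part of these in the values was not tested.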

How the results depend on the processing

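Of 754 recomputed log2 differences, 652 kept their direction and side of the threshold. Of the rest, 51 turned direction, 47 passed only in the alternative and 4 no longer passed. The numbers of genes and ratios called, given below, are not part of this total. The rise of Arg1 against skin passed in each alternative. In K5/K14 tumours the number of the 10 genes called lower, 2 in the report, was 5 within the 15 libraries, 4 with the 4 libraries as a covariate, 6 with DESeq2, 4 with RLE scaling and 6 with filterByExpr. Of all genes, 12476 of 32031 were lower in the report. In these alternatives 13533 of 31971, 13187 of 32031, 11579 of 31906, 13711 of 32031 and 9683 of 23726 were lower. In Ivl tumours the number of the 10 called lower was 2 within the 15 libraries, where 10465 of 31971 genes were lower.

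Without both skin 1 and 2, the number called lower was 5 in Ivl and 7 in K5/K14 tumours (7 and 7 within the 15 libraries). Of all genes, 2455 and 7683 of 30459 were lower (8416 and 10308 of 30189 within the 15). Without both skin 3 and 4 the number called lower was 0 in each, also within the 15 libraries. The number called higher was 3 and 3 (3 and 5 within the 15 libraries). Of all genes, 3506 and 10429 of 31249 were then lower and 5473 and 6602 higher. Within the 15 libraries 10198 and 12276 of 31075 genes were lower and 6477 and 7097 higher. Without skin 3 and 4 the log2 differences in Ivl and K5/K14 tumours turned to 0.82 and 0.86 for Adgre1, 0.78 and 0.76 for Csf1r, 0.64 and 0.56 for Mrc1, 1.81 and 1.45 for Lyz2, 1.89 and 1.52 for Itgam and 1.06 and 0.28 for Ccr2. Cd163 turned to 0.32 in Ivl and Ccl2 to 1.49 in K5/K14 tumours. Without skin 1 and 2, Cd68 turned to -0.59 and -0.15, and Ccl2 in Ivl tumours to -0.54 (-0.5445).

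Within the 15 libraries the Ivl minus K5/K14 difference of Cd163 turned to -0.29 and that of Ccr2 to -0.0034, and Ccl2 in K5/K14 tumours to 0.068 (0.00027 with the covariate). The Arg1 difference between Ivl and K5/K14 tumours turned to -0.017 with DESeq2 and with RLE scaling, -0.0046 with filterByExpr, and -0.00053 and -0.00039 without skin 1 and 2 or 3 and 4.

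Same-numbered samples did not deviate together (correlations from -0.484 to 0.391), so the numbers do not pair the samples. With a replicate block 1 gene was called lower in K5/K14 tumours, Itgam in Ivl tumours turned to 0.081, Ccl2 in K5/K14 tumours to 0.37 and the Arg1 difference between tumour types to -0.13.

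Leaving out each library in turn gave 0 to 3 genes lower in Ivl tumours, and 1 to 7 lower and 1 to 2 higher in K5/K14 tumours. Of all genes, 3158 to 7928 were lower in Ivl tumours, and 10637 to 13184 lower and 6889 to 7558 higher in K5/K14 tumours. The log2 differences ran from -0.15 to 0.75 for Cd68, -0.71 to 0.17 for Itgam and -0.19 to 0.98 for Ccl2 in Ivl tumours, from -0.38 to 0.79 for Ccl2 in K5/K14 tumours and from -0.25 to 0.23 for Arg1 between tumour types. Ratios to Adgre1 called in K5/K14 tumours numbered 0 to 3 higher and 0 to 1 lower, the 0 without any 1 skin sample, where the smallest p allowed is larger, and 0 to 1 higher between Ivl and K5/K14 tumours (1 without Ivl 2 or Ivl 5). The causes of these changes were not tested. The lowest count of any of the 10 genes was 52.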

Other observations

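The genes whose levels were most like those of each marker over the 15 tumours, among 13539 genes compared, are given as a description with no test. Adgre1 was followed by Csf1r (r = 0.976, 0.921 over the 11 tumours outside Ivl 1 to 3 and K5 1), Fcrls (0.975 and 0.934) and Prune2 (0.975 and 0.966). Csf1r was also followed by H2-M3 (0.971 and 0.935) and Selenop (0.97 and 0.967). Mrc1 was followed by the Fc receptor genes Fcgr3 (0.972 and 0.962) and Fcer1g (0.972 and 0.969) and by Ms4a6b (0.959 and 0.964). Lyz2 was followed by Gmfg (0.976 and 0.945), Tyrobp (0.962 and 0.932), the adaptor of many myeloid receptors, and P2ry12 (0.95 and 0.897). Itgam was followed by Aldh3b1 (0.889 and 0.833), Fcgr4 (0.885 and 0.83) and Cd52 (0.884 and 0.794).

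Cd163 was followed by Klhdc7a (0.963 and 0.982) and by the lectin genes Mgl2 (0.956 and 0.935) and Cd209d (0.926 and 0.954). Ccr2 was followed by Iqgap2 (0.979 and 0.983) and Cyp1b1 (0.968 and 0.964). Cd68 was followed by Bfsp1 (0.897 and 0.734), Toe1 (0.887 and 0.877) and Gcnt3 (0.878 and 0.723). Arg1 was followed by Myl7 (0.969 and 0.902), Sept5 (0.944 and 0.909) and Epn3 (0.938 and 0.855). Ccl2 was followed by Gdf6 (0.853 and 0.859), Tnfrsf21 (0.842 and 0.824) and Cxcl5 (0.826 and 0.868), a neutrophil chemokine. None of the 3 genes nearest to Cd68 or to Arg1 was in the lists of macrophage or monocyte genes described above. All points of a correlation share the scaling of their library.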
